A study of Sinohyriopsis cumingii with 10 samples.

Results

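Transcript levels in pearl sac tissue of the freshwater mussel Sinohyriopsis cumingii were compared between 48 h, 96 h and 7 d after implantation on the later side and 0, 2 and 6 h on the early side. These 6 RNA-seq libraries were taken by their labelled times out of 10 in the series, and the other 4 (12 h, 24 h, 14 d and 30 d) took no part in the test. All came from mussels labelled 2 years old with shells of 9 to 10 cm, kept on unicellular algae in aerated tanks, and all 6 were labelled as taken after implantation, 0 h included. The labels name the tissue as pearl sac at each time, and do not say whether donor graft or host tissue was sampled, nor whether a library came from 1 mussel or a pool. Each time had 1 library, so 3 neighbouring times stood in for replicates on each side, and a p-value below measures a difference between sides against the spread between neighbouring times, animals and libraries together.

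A pearl sac forms when a piece of mantle from a donor mussel is placed in a host. The outer epithelium of the graft, the layer that lays down shell, spreads and closes into a pouch that later secretes nacre, while blood cells of the host gather at the wound and may take part in clearing damaged tissue. The hours after implantation are thus known for wounding and the following days for closure of the epithelium. Transcripts were deposited as numbered contigs (assembled pieces of transcript), and the files pair no contig with a gene name or a sequence. The tissue label and the naming of 48 h to 7 d as a building phase could therefore not be checked against marker genes, and the results describe groups of contigs by their level, length and course in time.

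The files gave 211674 contigs in each of the 6 libraries. Totals lay between 20315910 and 21676889 reads at 48 h to 7 d, and between 21700375 and 22687368 reads at 0 to 6 h. Enough reads for a test were present in 45337 contigs (21.4%). The 3 later libraries resembled each other more than the 3 early ones did. Spearman's correlation over the tested contigs, given as a description across contigs and not as a test, was 0.89 to 0.93 within 48 h to 7 d, 0.77 to 0.85 within 0 to 6 h and 0.70 to 0.79 between the sides. The level of the median contig spanned 0.36 log2(CPM + 1) units among the 3 later libraries and 0.64 among the 3 early ones under TMM scaling (CPM are reads scaled to a common library size, and TMM sets that size from the bulk of the contigs, on the premise that most keep their level), and 0.48 and 0.56 with plain library totals.

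The libraries of 48 h to 7 d spread their reads over many more contigs. The number of contigs that held 50% of the reads was 330, 263 and 395 in the 48 h, 96 h and 7 d libraries, against 70, 77 and 64 in the 0, 2 and 6 h libraries. The side means were 329.3 ± 66 and 70.3 ± 6.51 contigs (SD, n = 3 each), 4.68 times as many in the later libraries, and the sides did not overlap (two-sided exact permutation p = 0.1, the smallest that 3 against 3 can give). At least 1 read was found in 159000.3 ± 11038 contigs at 48 h to 7 d and in 132860.0 ± 3736 at 0 to 6 h (SD, n = 3 each; two-sided exact permutation p = 0.1). The difference of 26140.3 contigs was 27956.3 with every library thinned to 20315910 reads, and 11958.7 where 10 reads were asked of a contig.

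In all, 2698 contigs were called in the same direction under both scalings used. Of these, 1140 contigs were higher at 48 h to 7 d under both TMM and total-count scaling, 2.51% of those tested, and 1558 were lower, 3.44% of those tested (edgeR's quasi-likelihood test, Benjamini-Hochberg adjusted over all 45337 contigs, threshold 0.05). Total counts moved the median tested contig up by 1.13 on the log2 scale, so agreement between the scalings is partly built in. All 1140 higher calls with TMM stayed higher with total counts. Of the 1581 lower calls with total counts, 1558 were lower with TMM. In bulk tissue, fewer cells of a type and less RNA per cell cannot be told apart. The median change of the 1140 was 2.06 on the log2 scale with TMM and 3.18 with total counts. Among the 1558 it was -3.36 and -2.21, beside -0.03 and 1.09 over all tested contigs. A test with a threshold picks out large changes, so these medians overstate a typical one.

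Larger steps were common in both groups of contigs, which their choice by a test with a threshold favours. At least 4-fold under both scalings were 613 of the 1140 higher contigs and 922 of the 1558 lower ones, and at least 16-fold were 95 and 124. Over all tested contigs, side means in log2(CPM + 1), a different measure, were at least 4-fold apart in 2.51% under TMM. With total counts that share was 3.27%. All 3 later libraries lay above all 3 early ones, under both scalings, in 1134 of the 1140 (99.5%). In the lower group the sides were apart under both scalings in 1304 of 1558 (83.7%). In the remainder at least 1 library of a side crossed into the other under at least 1 of the scalings. Over all tested contigs, sides apart in both scalings were found in 7102 contigs that were higher (15.7% of those tested) and 1706 that were lower (3.76%). Leaving out a library can only keep or raise these counts. They were 12336 higher without 2 h, and 2776 and 2700 lower without 7 d and without 0 h. Asking for a 2-fold distance between the nearest libraries of the sides left 790 higher (1.74%) and 673 lower (1.48%), and a 4-fold distance left 162 (0.357%) and 238 (0.525%).

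The reads behind these groups show how large the turnover was. The 1558 lower contigs held 11.3%, 6.80% and 4.85% of the reads in the 48 h, 96 h and 7 d libraries, against 48.2%, 49.5% and 51.3% in the 0, 2 and 6 h libraries. For the 1140 higher contigs these shares were 11.2%, 12.3% and 8.76% in the later libraries, against 0.818%, 1.30% and 0.892% in the early ones. Neither group's later and early shares overlapped. All other contigs together held 81.6 ± 4.49% at 48 h to 7 d and 49.4 ± 1.59% at 0 to 6 h (SD, n = 3 each). Since shares of a library sum to a fixed total, this gain of 0.72 on the log2 scale by contigs outside both groups accompanies the loss of the abundant ones. The contigs were chosen on the same libraries, so these shares are a description with no test.

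**Figure D1:**
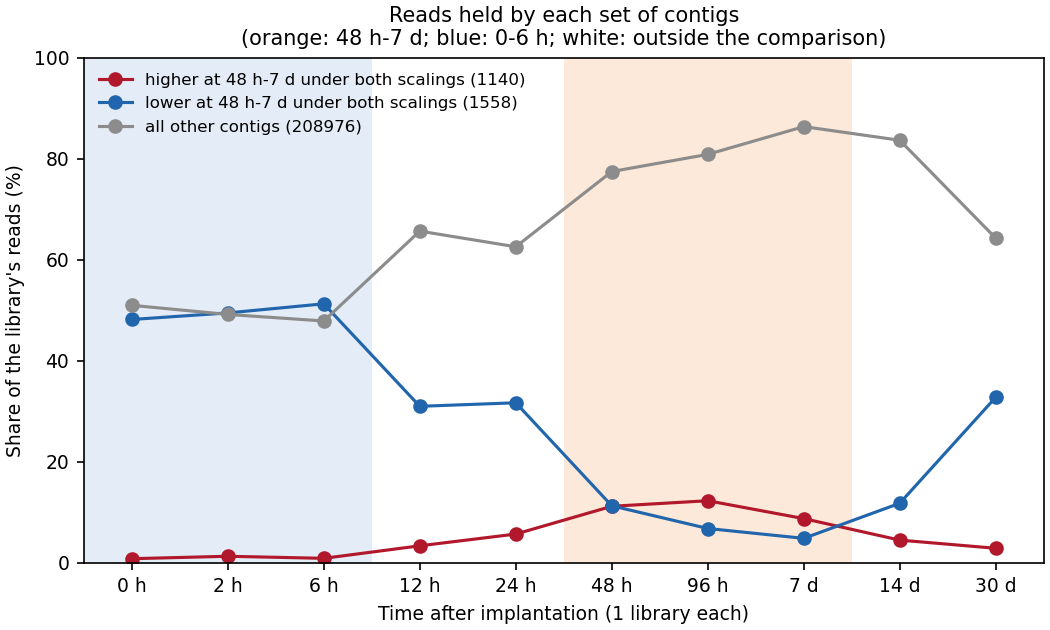
Share of each library's reads (vertical axis, %) held by the 1140 contigs higher at 48 h to 7 d under both scalings (red), the 1558 lower ones (blue) and all other contigs (grey), with 1 point per library in order of time. The blue points sit between 48.2% and 51.3% in the 3 early libraries and between 4.85% and 11.3% in the 3 later ones, and are at 32.8% at 30 d.

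Few contigs carried most of those reads. In the lower group, 16 contigs (1.03% of the group) held 50% of its reads at 0 to 6 h, and 98 (6.29%) held 90%. The 16 made up 5.64%, 2.86% and 1.71% of the 48 h, 96 h and 7 d libraries, against 24.2%, 25.0% and 27.2% of the 0, 2 and 6 h libraries. Their lengths ran from 361 to 4497 bases, and their log2 fold changes from -5.28 to -2.79 with TMM and from -4.16 to -1.69 with total counts. The sides did not overlap in any of the 16 under either scaling. Called in every one of the 6 fits that left out 1 library were 13 of the 16, beside 701 of all 1558 lower contigs. In the higher group, 11 contigs (0.965%) held 50% of its reads at 48 h to 7 d and 140 (12.3%) held 90%. The 11 made up 5.75%, 6.64% and 4.02% of the 48 h, 96 h and 7 d libraries, against 0.292%, 0.648% and 0.375% of the 0, 2 and 6 h libraries. Their sides did not overlap either. Only 2 of the 11 were called in every one of the 6 fits that left out 1 library, a share near that of the whole group (205 of 1140).

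The share of contigs that were lower grew with abundance. In the top class, the 139 tested contigs that averaged 1000 CPM or more over the 6 libraries, 53 (38.1%) were lower and 14 (10.1%) higher under both scalings. In the class of 100 to 1000 CPM, 137 of 979 contigs (14.0%) were lower and 53 (5.41%) higher. Lower contigs made up 5.42% of the class of 10 to 100 CPM, 3.16% of that of 1 to 10 CPM and 2.07% of that under 1 CPM, and the higher ones 4.49%, 2.40% and 1.65% of the same classes. The 53 lower contigs of the top class held 8.82%, 4.99% and 3.08% of the reads in the 48 h, 96 h and 7 d libraries, against 39.3%, 39.7% and 41.5% in the 0, 2 and 6 h libraries. The 14 higher ones held 6.49%, 7.33% and 4.55% in the later libraries, against 0.347%, 0.737% and 0.450% in the early ones. More reads stand behind an abundant contig, and the part of depth in these shares was not tested. The class was set by the mean over the same 6 libraries, so a contig with a large change entered it through its high side: the 53 had a median of 696 CPM at 48 h to 7 d and 4739 CPM at 0 to 6 h by total counts. With the class set instead by the mean over 12 h, 24 h, 14 d and 30 d, an alternative added after seeing the data, 54 of 147 contigs (36.7%) at 1000 CPM or more were lower and 11 (7.48%) higher. In those classes, from 100 to 1000 CPM down to under 1 CPM, the lower share was 14.2%, 5.12%, 2.87% and 2.54%, and the higher share 4.27%, 3.67%, 2.27% and 2.24%. These shares are a description with no test. The 53 lower contigs held 24.1%, 26.5%, 8.14% and 24.8% of the reads in the 12 h, 24 h, 14 d and 30 d libraries. The alternative classes therefore do not remove entry through libraries in which a contig was high.

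**Figure D2:**
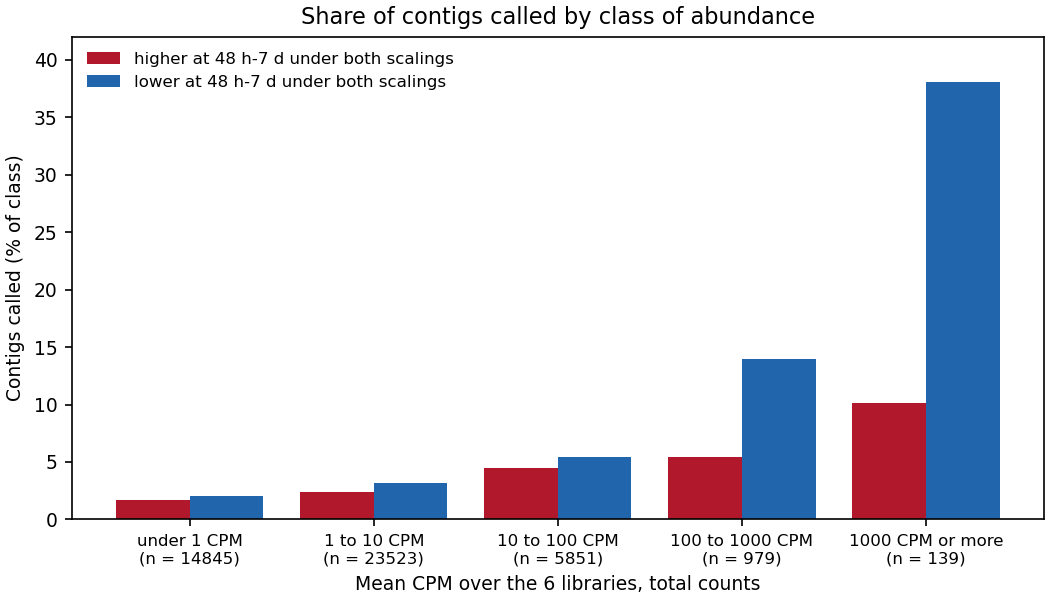
Share of tested contigs called higher (red) or lower (blue) at 48 h to 7 d under both scalings (vertical axis, % of the class) in 5 classes of mean CPM over the 6 libraries. The blue bar reaches 38.1% of the 139 most abundant contigs and 2.07% of those under 1 CPM, while the red bars run from 1.65% to 10.1%.

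Length separated the groups little. The median was 1413 bases among the higher contigs, 1382 among the lower ones and 1278 over all tested. Over 4 classes of equal size, from the shortest contigs (90 to 553 bases) to the longest (2376 to 27255 bases), the higher share was 2.29%, 2.35%, 2.64% and 2.78%, and the lower share 3.26%, 3.26%, 3.75% and 3.48%.

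Outside these 2 groups, the scaling decided which contigs were called and which direction prevailed among the calls. With TMM 4387 contigs were called (9.68%), of which 1140 were higher and 3247 lower (7.16%), so 26.0% of the calls were higher. With total counts 20595 were called (45.4%), of which 19014 were higher (41.9%) and 1581 lower (3.49%), so 92.3% of the calls were higher. TMM multiplied the library size by 1.306 (96 h) to 1.679 (7 d) on the later side and by 0.5977 (6 h) to 0.7414 (2 h) on the early side, and total counts moved the median tested contig up by 1.13 on the log2 scale. No contig was called in opposite directions, and 1689 contigs (3.73%) were lower with TMM and not called with total counts. The lower calls with TMM numbered 1487 without 48 h, 1015 without 96 h, 1781 without 7 d and 1935 without 6 h, and the higher calls with total counts 12318 without 48 h, 9864 without 7 d and 10104 without 6 h. Which scaling is closer to RNA per cell cannot be told from these files, since TMM takes the bulk of contigs as level and total counts take the sum of RNA as level.

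**Figure D3:**
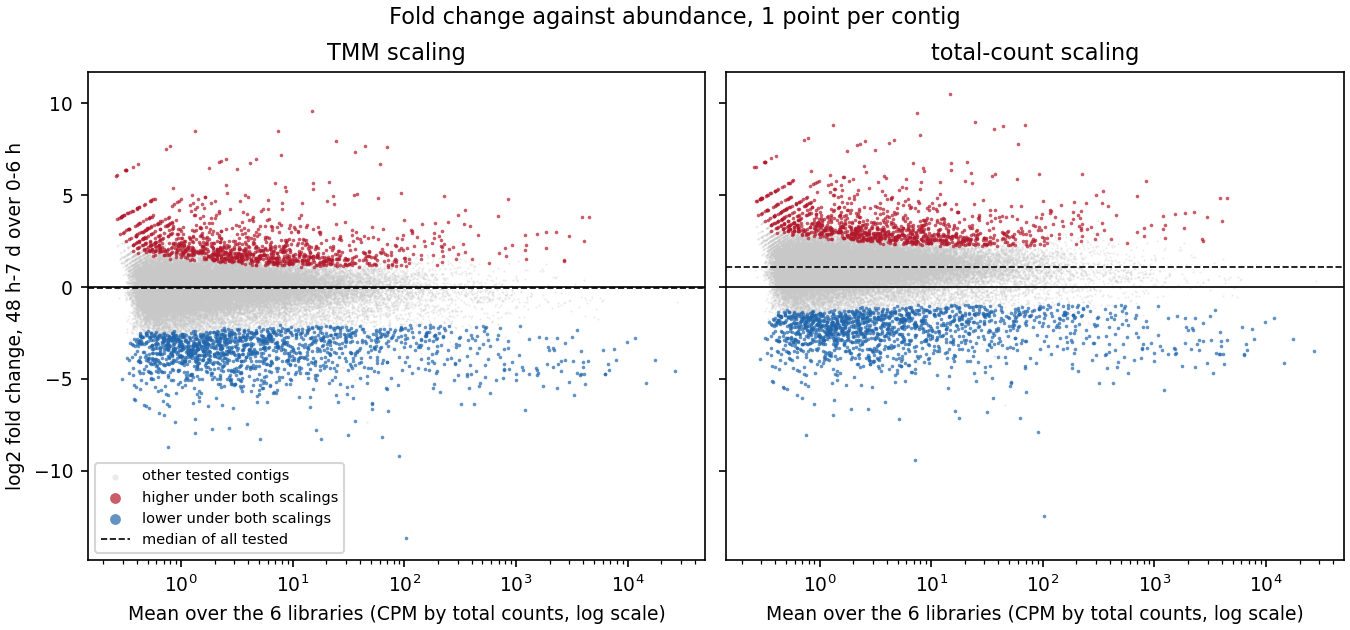
Log2 fold change of 48 h to 7 d over 0 to 6 h (vertical axis) against mean CPM over the 6 libraries by total counts (horizontal log axis), with 1 point per tested contig, under TMM (left) and total-count scaling (right). The dashed line marks the median of all tested contigs, at -0.03 on the left and 1.09 on the right. The contigs called under both scalings begin at 1.10 (red) and -2.05 (blue) on the left. On the right they begin at 2.23 and -0.93, and grey points also lie past these values in both panels.

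Single libraries weighed on the number of calls more than on direction. All 1140 higher and all 1558 lower contigs kept the sign of their fold change under both scalings when any 1 of the 6 libraries was left out. Their choice by a test on the same libraries largely fixes this. In edgeR's test, the higher contigs numbered 449 without 48 h, 233 without 96 h, 586 without 7 d, 837 without 0 h, 3002 without 2 h and 462 without 6 h. For the lower contigs, leaving out 96 h gave 792, and the other 5 libraries gave between 1046 and 1776. Called in every one of the 6 reduced fits were 205 of the 1140 and 701 of the 1558. Each such fit has fewer libraries, and only leaving out 2 h raised the number of higher contigs.

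By the rule for naming contigs, at most 2 were taken in each direction, since no names are paired with them. contig187853 (1757 bases) had the widest distance between the sides among 375 higher candidates. Its level under TMM was 32.2, 84.4 and 64.2 CPM in the 48 h, 96 h and 7 d libraries, against 0.506, 0.122 and 0.231 CPM in the 0, 2 and 6 h libraries. The early values rest on 8, 2 and 3 reads, and the later ones on 1024 to 2338. Its means were 60.3 ± 26.4 and 0.286 ± 0.198 CPM (48 h to 7 d and 0 to 6 h, SD, n = 3 each), a log2 fold change of 7.69 ± 0.63 (SE; edgeR's quasi-likelihood test, adjusted p = 0.00103), and with total counts 8.79 ± 0.64 (edgeR adjusted p = 0.000242).

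contig253341 (421 bases) had the highest mean level of the higher candidates. Under TMM it stood at 3718, 8573 and 5488 CPM in the 48 h, 96 h and 7 d libraries, against 268, 901 and 84.3 CPM in the 0, 2 and 6 h libraries. The nearest libraries, 48 h and 2 h, were 4.12-fold apart, and in fold terms the early libraries differed among themselves by more than the later ones did. Its log2 fold change was 3.83 ± 0.80 with TMM (SE; edgeR adjusted p = 0.0179) and 4.84 ± 0.80 with total counts (edgeR adjusted p = 0.00282). Without 96 h the TMM call was lost, with 3.49 (edgeR adjusted p = 0.064), and without 0 h likewise, with 3.59 (edgeR adjusted p = 0.0543).

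contig044671 (913 bases) had the widest distance among 614 lower candidates. The 48 h, 96 h and 7 d libraries had 0.503, 1.21 and 0.192 CPM of it under TMM, against 217, 188 and 141 CPM in the 0, 2 and 6 h libraries. Every later library thus lay far under every early one, the nearest of them (96 h and 6 h) 117-fold apart, or 53.6-fold with total counts. The log2 fold change was -8.18 ± 0.70 with TMM (SE; edgeR adjusted p = 0.00103) and -7.15 ± 0.61 with total counts (edgeR adjusted p = 0.000434).

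contig232834 (2545 bases) held the most reads of the lower candidates. The 48 h, 96 h and 7 d libraries gave it 168474, 70527 and 45319 reads, against 1212512, 833756 and 1219079 reads in the 0, 2 and 6 h libraries. Averaged over the libraries of a side, this contig alone made up 0.446% of the reads at 48 h to 7 d and 4.91% at 0 to 6 h. Its level under TMM was 3066 ± 2056 CPM at 48 h to 7 d and 73842 ± 21719 CPM at 0 to 6 h (SD, n = 3 each). The log2 fold change was -4.59 ± 0.66 with TMM (SE; edgeR adjusted p = 0.00344) and -3.46 ± 0.50 with total counts (edgeR adjusted p = 0.00192). Per length, in the RPKM deposited by the authors (reads divided by contig length and by the library's total), contig232834 was at 821 to 3073 RPKM in the later libraries and 14808 to 22074 RPKM in the early ones. The short contig253341 was at 13045 to 26587 RPKM in the later libraries and 119.6 to 1587 RPKM in the early ones, so per length these 2 contigs changed places.

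**Figure D4:**
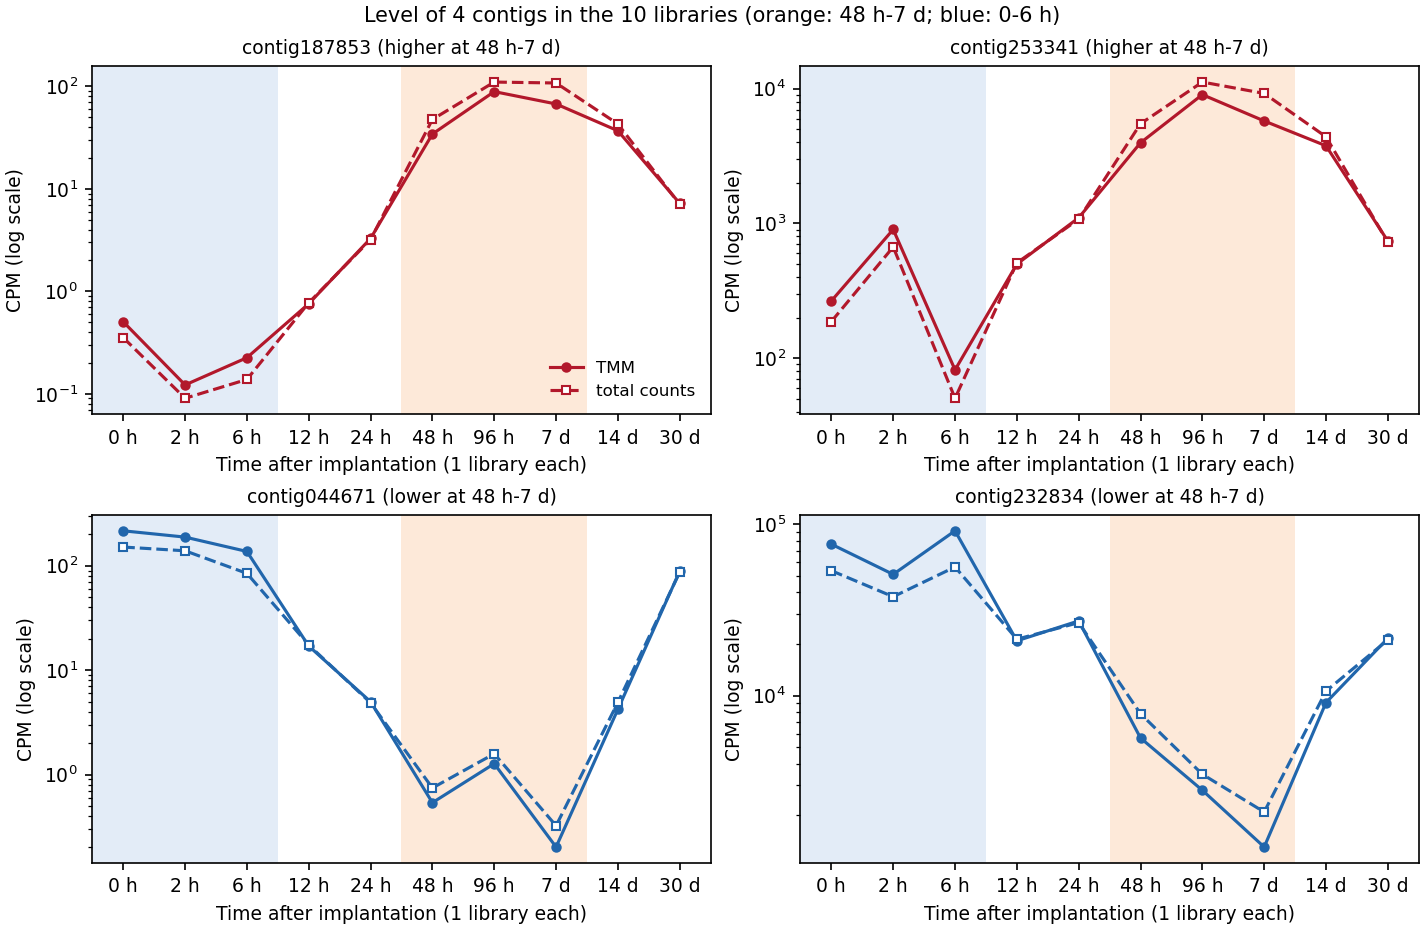
CPM (vertical log axis) of contig187853, contig253341, contig044671 and contig232834 in the 10 libraries in order of time, under TMM (filled, solid) and total counts (open, dashed). The upper 2 contigs are highest at 96 h and the lower 2 are lowest at 7 d under both scalings, and the 30 d value lies under each value of 48 h to 7 d in the upper 2 panels and above each of them in the lower 2.

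Presence and absence, which do not depend on scaling, gave few contigs. With at least 10 reads in each later library and none in any early one there were 11 of 211674 contigs (0.0052%), from 333 to 1499 bases long, and all 11 were among those called higher with TMM. Together they had 312, 222 and 155 reads in the 48 h, 96 h and 7 d libraries. A count of 0 in an early library allows up to 3 reads. The opposite pattern, at least 10 reads in each early library and none later, was found in 1 contig of 211 bases (0.000472%), with 57, 21 and 24 reads in the 0, 2 and 6 h libraries. With 5 reads in place of 10 the numbers were 81 and 24, and with 1 library left out they ran from 24 to 49 and from 5 to 29. Among the contigs called under both scalings, 11 of the 1140 higher and 1 of the 1558 lower had no read on their lower side. Nearly all called contigs thus had reads on both sides. Contigs with fewer reads are not covered by this rule. The 11 contigs also had reads in the libraries outside the comparison: in the 12 h, 24 h, 14 d and 30 d libraries 9, 11, 10 and 9 of them were found, with sums of 71, 87, 59 and 13 reads.

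The 4 libraries that took no part in the test show the course of both groups before and after. In the higher group the median level, in log2(CPM + 1) under TMM over all 10 libraries, was 0.89, 1.03 and 0.93 in the 0, 2 and 6 h libraries, 1.78 and 2.19 in those of 12 and 24 h, 2.48, 2.52 and 2.40 in those of 48 h, 96 h and 7 d, and 1.71 and 1.26 in those of 14 and 30 d. It thus lay between the early and the later levels at 12 h, 24 h, 14 d and 30 d. Both groups were chosen for opposite levels on the 2 sides. A library outside the comparison therefore tends to fall between them by that choice alone. In the lower group, of which 1556 contigs could be read at all times, it was 2.93, 3.21 and 3.33 in the 0, 2 and 6 h libraries, 2.14 and 1.50 in those of 12 and 24 h, 0.88, 0.81 and 0.78 in those of 48 h, 96 h and 7 d, and 1.55 and 2.50 in those of 14 and 30 d. Over all 45308 tested contigs readable at every time, the median lay between 1.33 and 1.40. With total counts the higher group was at 1.80, 2.17, 1.87 and 1.24 at 12 h, 24 h, 14 d and 30 d, and the lower group at 2.16, 1.48, 1.70 and 2.48.

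**Figure D5:**
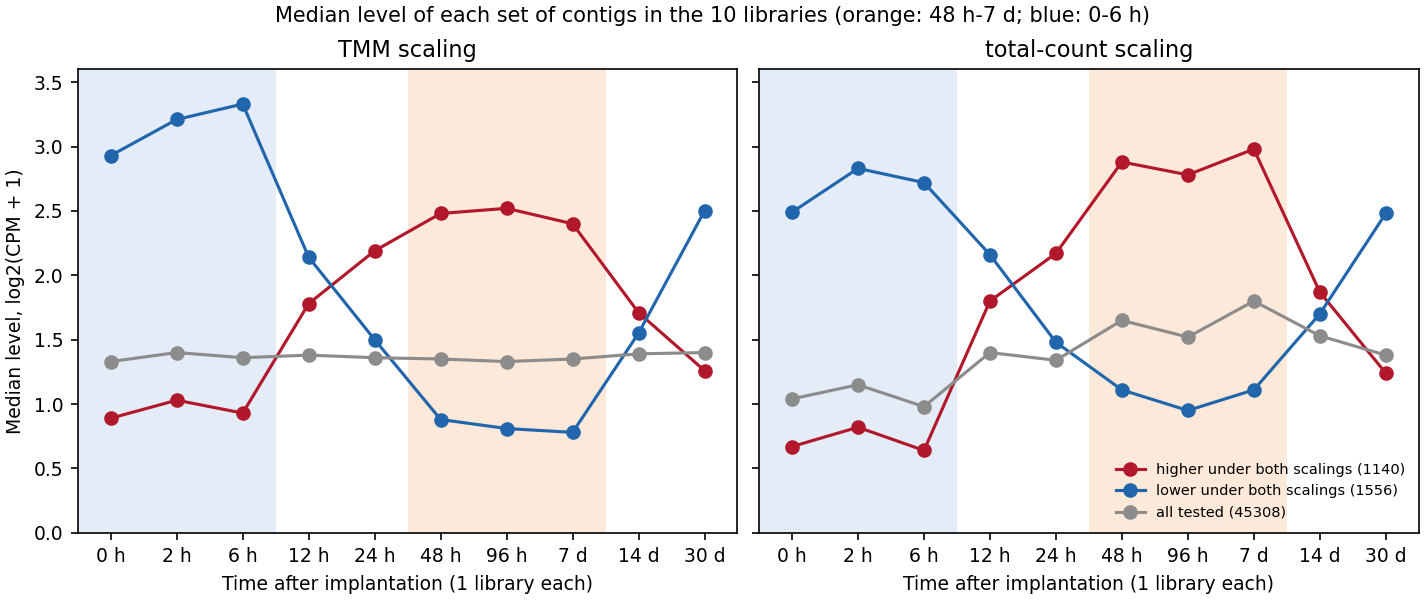
Median level in log2(CPM + 1) (vertical axis) of the higher (red) and lower (blue) contigs and of all tested contigs (grey) in the 10 libraries in order of time, under TMM (left) and total-count scaling (right). Red lies above blue from 24 h to 14 d, and blue above red from 0 h to 12 h and at 30 d, in both panels.

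Compared only among themselves, those 4 libraries ordered the groups differently. Under TMM the highest value of the 4 was that of 24 h for 599 of the 1140 higher contigs (52.5%) and that of 30 d for 65 (5.70%), against 22.7% and 24.1% over all tested contigs. For the 1556 lower contigs it was that of 30 d in 782 (50.3%), of 12 h in 511 (32.8%) and of 24 h in 130 (8.35%), where all tested contigs gave 24.1%, 24.4% and 22.7%. With total counts the same 3 times held 46.0%, 34.3% and 7.39% of the lower contigs, and 24 h held 47.7% of the higher ones, while over all tested contigs 30 d, 12 h and 24 h held 19.2%, 25.2% and 18.9%. From 24 h to 30 d the median change was -0.79 log2 units in the higher group, 0.65 in the lower group and 0 over all tested contigs under TMM. The 16 contigs that carried 50% of the early reads of the lower group departed from its order, since 11 of the 16 had their highest value of the 4 libraries at 24 h and 2 at 30 d. Their share of the reads was 15.3%, 17.9%, 5.77% and 16.5% in the 12 h, 24 h, 14 d and 30 d libraries. With 1 library at each of these times, none of these orders could be tested.

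Within the later side the higher contigs had no common peak. Under TMM, the higher contigs were split into 467 (41.0%) with their peak in the 48 h library, 344 (30.2%) in that of 96 h and 329 (28.9%) in that of 7 d, against 37.5%, 28.5% and 33.9% over all tested contigs. With total counts 44.5% were highest at 7 d and 40.6% at 48 h, against 54.1% and 33.6% over all tested contigs. Among the early libraries, 45.0% of the higher contigs that had a single highest library were highest at 2 h under TMM and 52.0% with total counts, beside 37.0% and 43.1% over all tested contigs.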

How the data were processed

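Per the file headers, the deposited tables list reads and RPKM per contig. The deposited reads were used in the way of estimated counts. They are whole except 0.5, which always stands beside an RPKM of 0 and was read as 0. RPKM deposited by the authors (per contig length and library total) gave contig lengths (90 to 27255 bases) and served 1 alternative test. For the assembler, aligner and counter, names and versions were not given in the sources used here. In the 30 d file 1 line is unreadable, so 166 contigs have no 30 d value there.

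Contigs were kept with filterByExpr (minimum 10 reads) and tested with edgeR 4.0.16 in R 4.3.3 (glmQLFit, glmQLFTest), once with TMM factors and once with library totals. Alternatives used DESeq2 1.42.0 and limma 3.58.1. The TMM fit was tested on simulated counts for 45337 contigs, of which 50 at each fold were changed, drawn from those above 1 CPM. It called 0% of the 2-fold, 16% of the 4-fold, 98% of the 16-fold and 100% of the 64-fold changes, with 5 false calls. In these counts most of the 2-fold and 4-fold changes were thus missed. The measured libraries had 9.68% of contigs called with TMM, and whether the same shares are missed there was not tested. SE was derived from the F statistic. Levels at all 10 times used TMM factors over 10 libraries. PCR copies carry no molecular identifiers, and depth limits low contigs most. Named contigs were those called and not overlapping under both scalings, with at least 10 CPM on their higher side: per direction, the widest distance in log2(CPM + 1) and the highest mean. Comparison, groups and rules were chosen with earlier results of these data known.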

Additional observations from a re-analysis of the deposited data

Results flagged for a closer look

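Reads also fell on contigs that none of the 6 compared libraries contained. Of 211674 contigs, 2374 had no read from 0 to 6 h or from 48 h to 7 d. These were looked at because they lie outside the comparison. In the other 4 libraries they held 2580 reads at 12 h (1067 contigs), 2027 reads at 24 h (957 contigs), 3909 reads at 14 d (1361 contigs) and 97645 reads at 30 d (1763 of the 2372 readable there). At 30 d this was 0.460% of the library, of which 1 contig held 87195 reads (89.3%), and the others 10450. At the other 3 times the highest single contig had 26, 56 and 122 reads. At least 10 reads were reached by 19, 8, 23 and 214 of these contigs in the 12 h, 24 h, 14 d and 30 d libraries.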

How the results depend on the processing

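No paired analysis was possible because the labels give no replicate numbers. The scaling by reads outside the 1000 most abundant contigs, total counts with a library left out, and abundance classes set by the other 4 libraries, were chosen after seeing the data. The 4387 calls with TMM were 20595 with total counts, 9639 with no filter, 2288 with at least 5 CPM in 3 libraries, 23210 with limma on log2(RPKM + 1), and 1248 to 7295 with 1 library left out. The 1140 higher calls were 19014, 2832, 788 and 21675 in the same 4 settings, 2459 scaled by reads outside the 1000 most abundant contigs, 1762 with DESeq2, and 233 to 3002 with 1 library left out. The 3247 lower calls were 1581, 6807, 1500 and 1535 in those 4 settings, and 1015 to 4293 with 1 library left out. Higher calls made up 26.0% of the total with TMM, 37.5% with upper-quartile scaling, 51.0% scaled by reads outside the 1000 most abundant contigs, 92.3% with total counts, 93.4% on log2(RPKM + 1), 18.7% to 41.2% with 1 library left out of the TMM fit and 88.9% to 93.6% with 1 left out under total counts. Calls under both scalings were 2816 higher with no filter and 1762 with DESeq2, 675 lower with at least 5 CPM, and 233 to 3002 higher and 792 to 1776 lower with 1 library left out. For DESeq2, its own size factors took the place of TMM. Of the 1140, DESeq2 called 1081 and the fit with no filter 1109.

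Contigs with sides apart numbered 790 higher and 673 lower at a 2-fold distance, 18630 and 4714 with no filter, and 2500 and 681 with at least 5 CPM, and 8375 to 12336 (without 2 h) and 1834 to 2776 (without 7 d) with 1 library left out. Contigs found on 1 side were 81 (later) and 24 (early) at 5 reads, and 0 later ones at 20 reads, with 24 to 49 and 5 to 29 when 1 library was left out. The differences in detected contigs (21032.5 to 31994.5) and in contigs holding 50% of the reads (226.2 to 292.2) kept their direction without any 1 library. The 4 named contigs kept their direction in 60 of 60 settings and passed the threshold in 58. These settings reuse the libraries they were picked from. Fewer libraries or contigs account for part of the reduced counts by construction, and otherwise the cause was not tested. Counts of contigs with sides apart or found on 1 side can only stay or rise when a library is left out. Low depth bears most on contigs under 1 CPM.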
